A study of Mus musculus with 12 samples.

Results

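The genes described here are 10 markers of the choroid plexus epithelium, Ttr, Enpp2, Folr1, Kl, Clic6, Otx2, Kcne2, Aqp1, Prlr and Calml4, read in RNA-Seq of sorted mouse oligodendrocytes. They were taken by gene symbol from the 55376 symbols of the count table, and all 10 were present and passed the filter of at least 1 CPM (reads of a gene scaled to library size) in at least 4 of 12 samples, as did 17716 genes in all. Each sample held live CD45- O1+ cells sorted by FACS from the pooled brains of 2 C57BL/6 mice at postnatal day 40 (P40), and each of the 3 genotypes had 4 samples. WT mice were compared with Cnp-Cre Jab1fl/fl mice (Jab1 mutants), in which Cre under the control of the oligodendrocyte gene Cnp deletes Jab1 (Cops5), a subunit of the COP9 signalosome, and with Cnp-Cre Jab1fl/fl p21CIP1-/- mice (double mutants), which carry the same deletion and also lack the cell cycle inhibitor p21 (Cdkn1a) in every cell. The study's list of lines gives C57Bl/6J for the floxed and Cre lines and 129S6/SvEvTac, backcrossed, for the p21 null line. The Cnp-Cre transgene is active from late oligodendrocyte precursors onward and recombines in Schwann cells as well. The question here was how these markers of another cell type varied across the samples and genotypes.

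The choroid plexus is a folded sheet of epithelium in the brain ventricles that secretes cerebrospinal fluid. Its cells move water and ions across their apical membrane, carry folate into the fluid and secrete transport proteins, above all transthyretin, and they keep the homeodomain factor OTX2 that is needed for their development. These genes are taken as markers because most other brain cells express little of them, with the exception of Enpp2, which mature oligodendrocytes also express. In a bulk sample, fewer cells of a type and less RNA per cell cannot be told apart.

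Total counts were 61485556 to 153495112 per sample. All CPM values here were scaled with TMM factors. All 12 samples contained the oligodendrocyte markers of the sort: the sum of 11 such genes (Mbp, Mog, Mag and others) was 18133 to 40455 CPM in WT, 5752 to 27582 CPM in Jab1 mutants and 9547 to 27026 CPM in double mutants, with none of the 11 at 0. Their mean log2(CPM + 1) was 9.68 to 10.9 in WT, 6.58 to 9.05 in Jab1 mutants and 7.79 to 9.94 in double mutants. By that mean, WT and Jab1 mutants did not overlap. Of the targeted genes, Cops5 was at 139, 48.4, 136 and 107 CPM in WT, at 86.1, 65.3, 63.8 and 42.5 CPM in Jab1 mutants and at 47.8, 45.6, 87.6 and 51.2 CPM in double mutants, so that the groups overlapped and Jab1 mutants did not pass the test against WT (edgeR log2 fold change −0.62, SE 0.36, adjusted p = 0.349). Cdkn1a was at 89.0, 45.2, 17.0 and 22.2 CPM in WT, at 366, 398, 369 and 603 CPM in Jab1 mutants and at 85.4, 106, 98.0 and 63.3 CPM in samples labelled p21CIP1-/-. Counts over the whole gene do not separate deleted exons from the rest, so neither Cops5 nor Cdkn1a reads test the labels. By quantitative PCR on sorted O1+ cells, the paper reports reduced Cops5 in Jab1 mutants and no detectable Cdkn1a in double mutants. It also reports less JAB1 protein in optic nerves of Jab1 mutants.

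In the reference annotation (GENCODE M21, GRCm38) the 10 genes lie on 8 chromosomes and are all protein coding. Otx2 shares exon bases with Otx2os1 on the other strand and with Gm49154 on its own strand, and Prlr shares exon bases with Gm21973 on its own strand. Whether reads were counted by strand is not stated, so counts of Otx2 and Prlr are uncertain to that extent.

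Because most of the members (all but Enpp2 and Aqp1, as described further on) vary together across samples, the upstream sequences that the reference holds for them were read from RefSeq promoter windows (GRCm38), which covered 6 of the 10 genes with 12 windows of 250 bases before a transcription start. They were searched on both strands for TAATCC, the core bound by OTX-type homeodomains. It occurred in 1 of the 12 windows, 1 of the 4 of Otx2 itself, and in 6.25% of the 32817 windows of the whole table. That window of Otx2, at chr14:48665110-48665359 on the minus strand, is printed first, 5′ to 3′ along the gene, with the match in capitals (it reads as the reverse complement and begins 211 bases before the start). The windows of Kl, at chr5:150952357-150952606 on the plus strand, and of Calml4, at chr9:62857854-62858103 on the plus strand, follow as members with a single window each and no match. A match is only a description of the letters, and no match says nothing of the factor.
Otx2: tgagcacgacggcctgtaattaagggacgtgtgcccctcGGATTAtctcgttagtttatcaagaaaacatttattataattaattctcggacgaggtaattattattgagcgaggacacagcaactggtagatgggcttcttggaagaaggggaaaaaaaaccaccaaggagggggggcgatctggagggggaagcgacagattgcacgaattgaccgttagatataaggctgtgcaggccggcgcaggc
Kl: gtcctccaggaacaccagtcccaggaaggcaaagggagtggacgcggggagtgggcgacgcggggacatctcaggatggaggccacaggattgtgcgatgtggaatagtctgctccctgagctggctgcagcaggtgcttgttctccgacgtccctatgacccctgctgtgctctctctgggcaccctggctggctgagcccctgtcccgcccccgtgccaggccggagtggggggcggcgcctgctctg
Calml4: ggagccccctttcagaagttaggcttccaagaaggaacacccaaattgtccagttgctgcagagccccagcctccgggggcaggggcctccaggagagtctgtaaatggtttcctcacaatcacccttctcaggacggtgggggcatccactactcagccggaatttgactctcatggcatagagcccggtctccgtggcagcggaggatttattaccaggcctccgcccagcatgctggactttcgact

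Ttr encodes transthyretin, the secreted carrier of thyroxine and of retinol-binding protein. It is at chr18:20665280-20674321 on the plus strand (ENSMUSG00000061808.4). Ttr was at 3086, 1211, 287 and 4026 CPM in WT replicates 1, 3, 5 and 6, at 11329, 6311, 22288 and 14665 CPM in Jab1 mutant replicates 1 to 4, and at 5345, 7248, 22466 and 10745 CPM in double mutant replicates 1, 2, 3 and 5. Every sample of both mutant genotypes was above every WT sample, whereas the mutant genotypes overlapped. Ttr was the second most counted gene in replicate 3 of both mutant genotypes, its highest rank, and ranked 592 in WT replicate 5, the sample where it ranked lowest. Its mean over 12 samples was 7659 CPM per kb of exon, the highest of the 10 genes by this measure of level per length, followed by Enpp2 at 1208 CPM per kb, Folr1 at 46.2 CPM per kb and Calml4 at 32.6 CPM per kb. The other 6 were between 0.797 (Aqp1) and 14.2 CPM per kb (Kcne2). Kit chemistry and isoform use also enter a level per kb, and the order of neighbours was rarely clear of their spread. Ttr and Enpp2 differed in mean by 1.02 times the larger SD over the 12 samples, with Ttr higher in 10 of them, and Enpp2 and Folr1 by 2.82 times, with Enpp2 higher in 12. From Folr1 down, through Calml4, Kcne2, Clic6, Otx2, Kl and Prlr to Aqp1, no neighbours differed in mean by more than 0.854 times the larger SD.

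Enpp2 encodes autotaxin, the secreted enzyme that makes lysophosphatidic acid, and is found in choroid plexus and in oligodendrocytes. It lies at chr15:54838901-54952892 on the minus strand. Enpp2 was at 2943, 4048, 5633 and 3667 CPM in WT, at 3923, 2461, 5310 and 3248 CPM in Jab1 mutants and at 2361, 4633, 6946 and 3260 CPM in double mutants. The 3 genotypes overlapped, and the highest and lowest samples differed by only 2.94-fold, against 78.3-fold for Ttr. In WT replicate 5, where Ttr was lowest, Enpp2 was at its highest WT level.

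**Figure D1:**
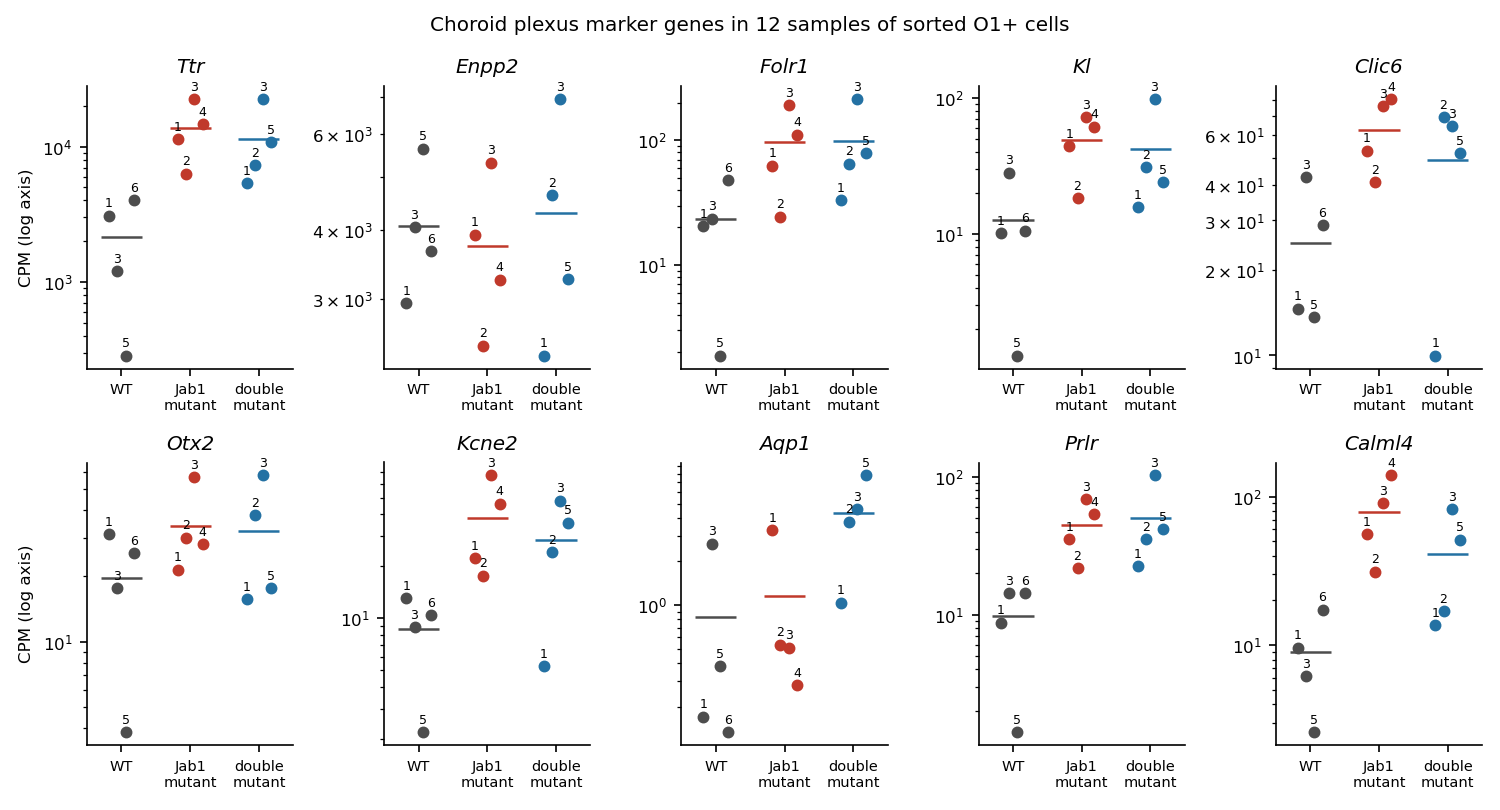
Level of each of the 10 genes in 12 samples, in CPM on a log axis that differs between panels. Points are samples, labelled by replicate number, and bars are group means of 4 samples. WT replicate 5 is the lowest of the 12 samples for Ttr, Folr1, Kl, Otx2, Kcne2, Prlr and Calml4, and Enpp2 shows no such low sample.

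Folr1 encodes folate receptor alpha, by which the epithelium passes folate into the cerebrospinal fluid. Folr1 was at 20.4, 23.6, 1.88 and 48.0 CPM in WT, at 62.6, 24.4, 191 and 111 CPM in Jab1 mutants and at 33.1, 64.8, 214 and 78.4 CPM in double mutants. The mutant samples reached the higher levels, but WT replicate 6 was above the lowest sample of each mutant genotype. Kl encodes Klotho, the co-receptor of FGF23, and was at 10.1, 28.2, 1.26 and 10.5 CPM in WT, at 44.0, 18.3, 72.1 and 61.4 CPM in Jab1 mutants and at 15.7, 30.9, 98.4 and 23.8 CPM in double mutants. The groups overlapped through WT replicate 3. Prlr encodes the prolactin receptor and was at 8.74, 14.3, 1.40 and 14.4 CPM in WT, at 35.3, 21.8, 68.9 and 53.8 CPM in Jab1 mutants and at 22.4, 35.3, 103 and 41.6 CPM in double mutants. Of the 3 receptors, Prlr alone had every mutant sample above every WT sample.

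Kcne2, an accessory subunit of potassium channels in the apical membrane, was at 13.1, 8.88, 2.20 and 10.5 CPM in WT, at 22.2, 17.7, 67.2 and 46.2 CPM in Jab1 mutants and at 5.31, 24.2, 48.1 and 35.8 CPM in double mutants. The Jab1 mutants were all above WT, and double mutant replicate 1 was within the WT range. Clic6, of the chloride intracellular channel family, was at 14.6, 42.8, 13.6 and 28.9 CPM in WT, at 53.0, 41.0, 76.2 and 80.7 CPM in Jab1 mutants and at 9.98, 69.4, 64.6 and 51.8 CPM in double mutants. Only WT replicate 3 reached into the Jab1 mutant range, and double mutant replicate 1 was the lowest of all 12 samples. Aqp1, the apical water channel of this epithelium, was the least abundant member at 0.170, 2.65, 0.379 and 0.133 CPM in WT, 3.28, 0.533, 0.508 and 0.280 CPM in Jab1 mutants and 1.04, 3.74, 4.59 and 7.81 CPM in double mutants. These values rest on 12 to 763 counts, and Aqp1 did not follow Ttr throughout: double mutant replicate 3 was high in both, whereas WT replicate 3 was high in Aqp1 and low in Ttr.

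Otx2, the homeodomain factor, was at 31.2, 17.5, 3.84 and 25.5 CPM in WT, at 21.4, 29.97, 56.9 and 27.9 CPM in Jab1 mutants and at 15.7, 38.0, 57.9 and 17.5 CPM in double mutants. The 3 genotypes overlapped, with replicate 3 highest in both mutant genotypes. Calml4, which encodes a calmodulin-like protein, was at 9.64, 6.21, 2.60 and 17.4 CPM in WT, at 55.6, 31.2, 90.6 and 139 CPM in Jab1 mutants and at 13.6, 16.9, 82.3 and 51.3 CPM in double mutants. All Jab1 mutant samples were above all WT samples, whereas double mutant replicates 1 and 2 were below WT replicate 6.

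Between Jab1 mutants and WT, 4 of the 10 genes were higher at an adjusted p below 0.05 in edgeR's quasi-likelihood test with Benjamini-Hochberg adjustment over all 17716 genes, and 0 were lower. Over all genes, 5.19% were called higher and 2.46% lower. These 10 genes were proposed with results of the same samples known, so nothing is read from their count against that background and their p-values are no independent evidence. Calml4 rose most, from 8.95 ± 6.30 to 79.1 ± 46.7 CPM (SD, n = 4 each), with a log2 fold change of 3.27 (SE 0.63, adjusted p = 0.0117). Ttr rose from 2153 ± 1708 to 13648 ± 6705 CPM (log2 fold change 2.79, SE 0.73, adjusted p = 0.0408). Prlr (2.34, SE 0.64, adjusted p = 0.0490) and Kcne2 (2.28, SE 0.60, adjusted p = 0.0425) rose by similar log2 fold changes. The same 4 genes had every Jab1 mutant sample above every WT sample, as 8.73% of all genes did.

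The other 6 genes did not pass in this fit. Log2 fold changes were 2.18 for Folr1 (SE 0.81, adjusted p = 0.136), 2.10 for Kl (SE 0.74, adjusted p = 0.115) and 1.45 for Clic6 (SE 0.43, adjusted p = 0.0628). With 1 sample left out, Folr1 ranged from 1.60 to 2.81 and Kl from 1.72 to 2.86, and neither passed. Clic6 passed in 2 of these 8 fits (adjusted p 0.0389 to 0.155). DESeq2 called Kl (adjusted p = 0.0123) and Clic6 (adjusted p = 0.00923), beside 15.3% of all genes. With a filter at a mean of 10 CPM, edgeR also called Kl (adjusted p = 0.0400) and Clic6 (adjusted p = 0.0209). The fitted changes of Otx2 (0.92, SE 0.56, adjusted p = 0.375), Aqp1 (0.58, SE 1.30, adjusted p = 0.846) and Enpp2 (0.0067, SE 0.36, adjusted p = 0.995) were smaller. All 10 fitted values were above 0, with a median of 2.14 (0.024 over all genes). This describes genes chosen with results known. The values of Enpp2 and Aqp1 were smaller than their SE and changed sign in some alternative fits.

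Calml4 passed in all 8 fits that left out 1 sample (adjusted p 0.00629 to 0.0459). Ttr passed in 3 of these 8, without WT replicates 5 or 6 or Jab1 mutant replicate 2, and its adjusted p was 0.0722 without WT replicate 1, 0.118 without WT replicate 3 and 0.0670, 0.102 and 0.0805 without Jab1 mutant replicates 1, 3 and 4. Prlr passed in 2 (without WT replicate 5 or Jab1 mutant replicate 2) and Kcne2 in 1 (without Jab1 mutant replicate 2), with adjusted p up to 0.129 and 0.127. Without WT replicate 5, the sample lowest in 7 of the 10 genes, 3 of the members passed, at log2 fold changes of 2.96 for Calml4, 2.42 for Ttr and 1.98 for Prlr.

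**Figure D2:**
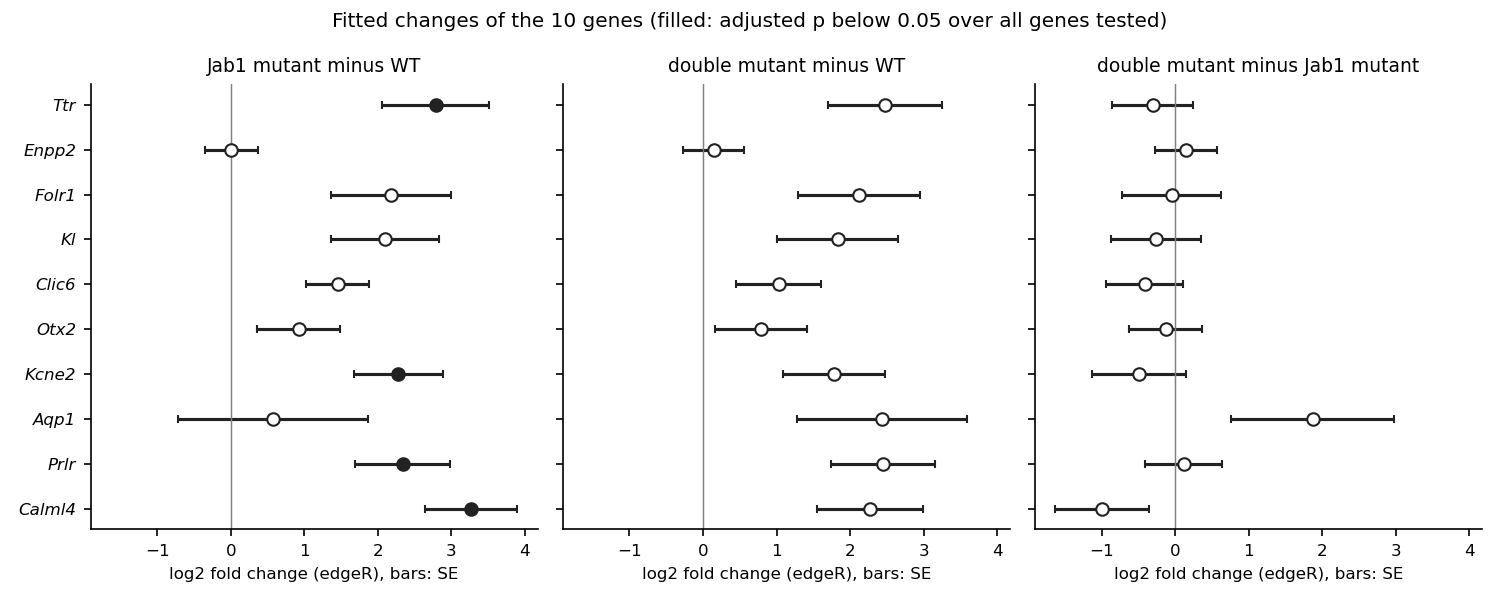
Log2 fold change of each gene in the 3 comparisons, as fitted by edgeR on the 8 samples compared, with bars of 1 SE. Filled points have an adjusted p below 0.05 over all 17716 genes, which were Ttr, Kcne2, Prlr and Calml4 in Jab1 mutants against WT and none in the other comparisons.

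Between double mutants and WT, 0 of the 10 genes passed, against 0.175% called higher and 0.0169% called lower over all genes. Unadjusted p was below 0.05 for 6 of the 10 (12.4% of all genes in either direction), and DESeq2 on the same samples called Ttr, Prlr and Calml4 (4.94% of all genes). The fitted log2 fold changes were 2.48 for Ttr (SE 0.77, adjusted p = 0.225), 2.45 for Prlr (SE 0.71, adjusted p = 0.197), 2.27 for Calml4 (SE 0.72, adjusted p = 0.226), 2.12 for Folr1 and 1.83 for Kl. Without double mutant replicate 3 the last of these fell to 0.97 and Folr1 to 1.37, and without WT replicates 3 and 6 in turn Kl was at 2.60 and Folr1 at 2.79. Ttr and Prlr had every double mutant sample above every WT sample, as 4.01% of all genes did. Aqp1 was at 4.30 ± 2.79 CPM in double mutants and 0.833 ± 1.22 CPM in WT (SD, n = 4 each; log2 fold change 2.44, SE 1.16, adjusted p = 0.428), or 4.31 on the log2 scale without WT replicate 3, and Enpp2 again had a fitted value near 0 (0.15, SE 0.41). The median of the 10 was 1.98. This comparison shares its WT samples with the preceding one, so the fitted values of the members are not independent between them.

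Between double mutants and Jab1 mutants, 0 of the 10 genes passed (0% called over all genes), 0 had an unadjusted p below 0.05 (5% of all genes) and DESeq2 called 0 (0.499% of all genes). None of the 10 separated the groups without overlap, as 3.26% of all genes did. The largest fitted differences were 1.87 for Aqp1 (SE 1.11, adjusted p = 0.996) and −0.99 for Calml4 (SE 0.64, adjusted p = 0.996), and that of Ttr was −0.30 (SE 0.55). With standard errors of 0.43 to 1.11, differences of the size of those of Clic6 (−0.42) or Kcne2 (−0.49) were not detectable. The median was −0.20.

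Samples of the same genotype also differed widely. Ttr ranged 14.0-fold among the 4 WT samples, 3.53-fold among Jab1 mutants and 4.20-fold among double mutants. Folr1 ranged 25.5-fold and Kl 22.3-fold within WT, and both were lowest in replicate 5 there. In Jab1 mutants, replicate 2 was the lowest for all genes but Otx2 and Aqp1, and in double mutants replicate 1 was the lowest for all 10 genes.

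**Figure D3:**
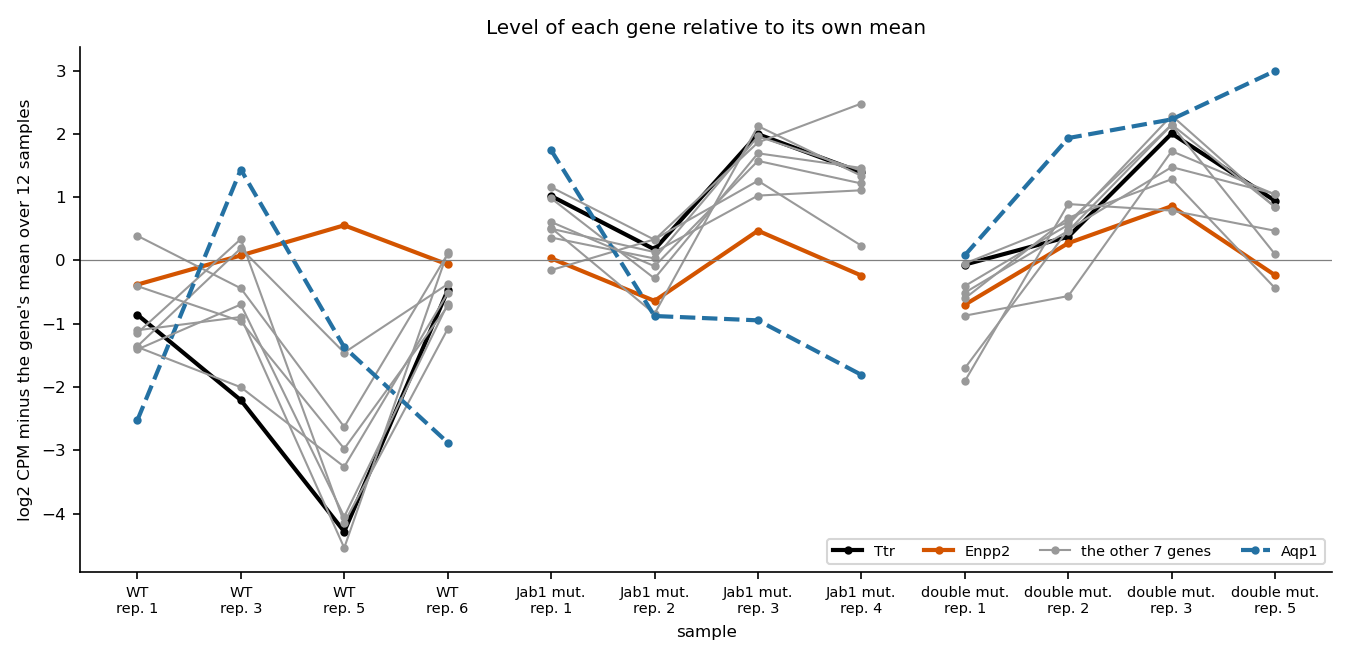
Log2 CPM of each gene minus its own mean over the 12 samples, with samples on the x axis grouped by genotype. Lines join the values of 1 gene within a genotype and imply no order. Ttr and the grey genes move together, down in WT replicate 5 and up in replicate 3 of both mutant genotypes, whereas Enpp2 stays near 0 and Aqp1 moves apart.

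To describe this shared variation apart from genotype, the deviation of log2(CPM + 1) from its genotype mean was correlated between genes over the 12 samples. Such values share library, depth and scaling, and are given as a description. Among 8 of the genes (all but Enpp2 and Aqp1), the 28 pairs had Pearson r from 0.45 (Ttr with Clic6) to 0.98 (Folr1 with Prlr), with a median of 0.82. The pairing of Ttr with Folr1 had an r of 0.94 and that of Kl with Prlr 0.95. Enpp2 had r of 0.11 to 0.56 with the other 9 genes (median 0.29), and Aqp1 had r of −0.05 to 0.56 with the others (median 0.25).

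**Figure D4:**
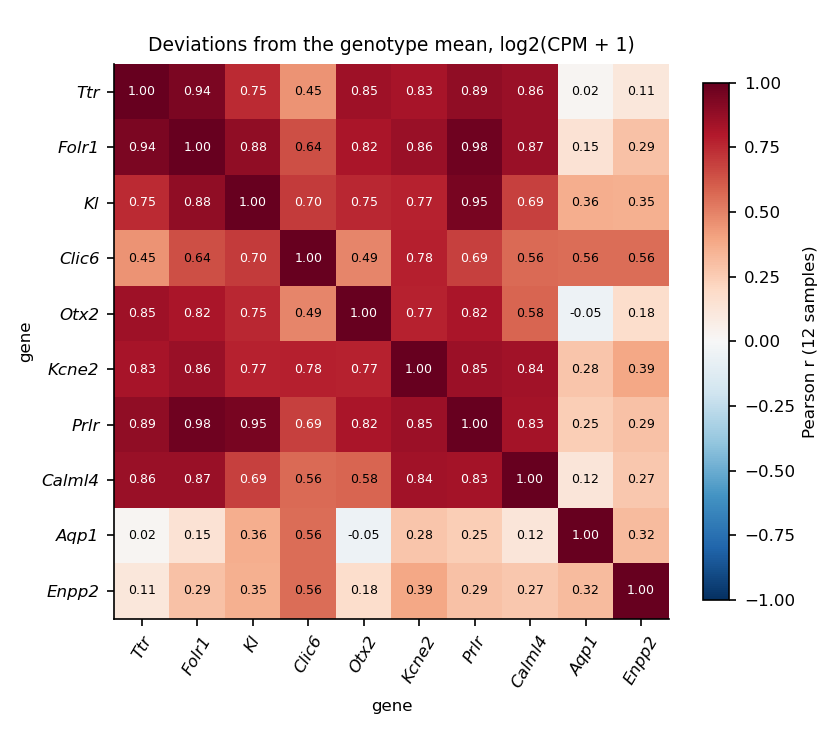
Pearson r between the 10 genes over 12 samples, computed on deviations of log2(CPM + 1) from the genotype mean. The color scale runs from −1 to 1. The block of 8 genes at the upper left has r of 0.45 to 0.98 between different genes, and the Aqp1 and Enpp2 margins have values of at most 0.56.

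Relative to Ttr, some members kept a steadier ratio than others. Log2 CPM of Folr1 had an SD of 1.82 over the 12 samples, but the log2 ratio of Folr1 to Ttr had an SD of 0.59. The SD fell in the same way for Prlr (1.63 to 0.54), Calml4 (1.73 to 0.62), Kcne2 (1.44 to 0.80) and Kl (1.68 to 0.86). Per 1000 CPM of Ttr, the median of Prlr was 4.17 CPM in WT, 3.28 CPM in Jab1 mutants and 4.38 CPM in double mutants, and that of Folr1 was 8.88, 6.46 and 8.08 CPM. For Clic6 (1.04 to 1.37), Otx2 (1.03 to 1.12), Aqp1 (2.01 to 2.29) and Enpp2 (0.48 to 1.88) the ratio varied more than the level did. The median of Otx2 per 1000 CPM of Ttr was 11.6 CPM in WT, 2.21 CPM in Jab1 mutants and 2.75 CPM in double mutants, and that of Clic6 was 15.9, 5.08 and 3.73 CPM. A ratio carries the spread of Ttr itself, which had an SD of 1.82 on the log2 scale.

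The genes most like the mean of the 9 members other than Enpp2, by r of the deviations over 12 samples among the other 17706 genes tested, were Tcf7l2 (0.97), Kcnj13 (0.97), Emb (0.96), Pcolce (0.95), Lbp (0.94), Ccdc80 (0.94), Plekho1 (0.93), Samd9l (0.92), Sostdc1 (0.92) and Arhgap26 (0.92). Kcnj13, a potassium channel, and Sostdc1, a secreted BMP and Wnt antagonist, are known from the choroid plexus. Across levels, with genotype included, r was 0.98 for Kcnj13 and 0.96 for Sostdc1 but 0.45 for Tcf7l2, 0.50 for Ccdc80 and 0.39 for Arhgap26. The genes most like Enpp2 were others, Apobec1 (0.92), Oas1g (0.92), Gm15597 (0.91), Calhm5 (0.90) and Adcy7 (0.90).

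A list of 26 further choroid plexus genes was read beside the members, and 24 of them passed the filter (all but Lmx1a and Igf2). This list was also chosen with earlier results of these data known. Its shares and p-values are therefore a description and no independent evidence. Of the 24, 13 (54.2%) had an r above 0.8 with the mean of the 9 members, as did 0.847% of all other genes tested, and their median r was 0.81 against −0.02. Tmem72 (0.91), Spint2 (0.91), Car12 (0.87) and Msx1 (0.86) were among them, whereas Slc4a5 (0.27) and Slc4a2 (−0.40), an anion exchanger that many cell types express, were not.

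In Jab1 mutants against WT, 3 of the 24 were called higher and 0 lower, beside 5.19% and 2.46% of all genes. Unadjusted p was below 0.05 in either direction for 16 of the 24 (22.5% of all genes), and DESeq2 called 11, with 10 higher and 1 lower (15.3% of all genes). Krt18, a keratin of simple epithelia, rose from 5.869 ± 1.498 to 42.3 ± 11.9 CPM (SD, n = 4 each; log2 fold change 2.97, SE 0.38, adjusted p = 0.00210). Slc13a4, a sulfate transporter, rose by 2.45 (SE 0.60, adjusted p = 0.0323) and Kcnj13 by 2.19 (SE 0.59, adjusted p = 0.0457) on the log2 scale. Fitted values were above 0 for 23 of the 24, with a median of 1.86, and 9 had every Jab1 mutant sample above every WT sample, beside 8.73% of all genes. Sostdc1 (2.32, adjusted p = 0.131), Spint2 (2.22, adjusted p = 0.0716) and Msx1 (1.59, adjusted p = 0.0823) did not pass, and Slc4a2 was the 1 gene with a fitted value below 0 (−1.37, adjusted p = 0.100). Leaving out 1 sample gave 1 to 4 calls. The count was 1 without WT replicates 1 or 3 or without Jab1 mutant replicates 1, 3 or 4.

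**Figure D5:**
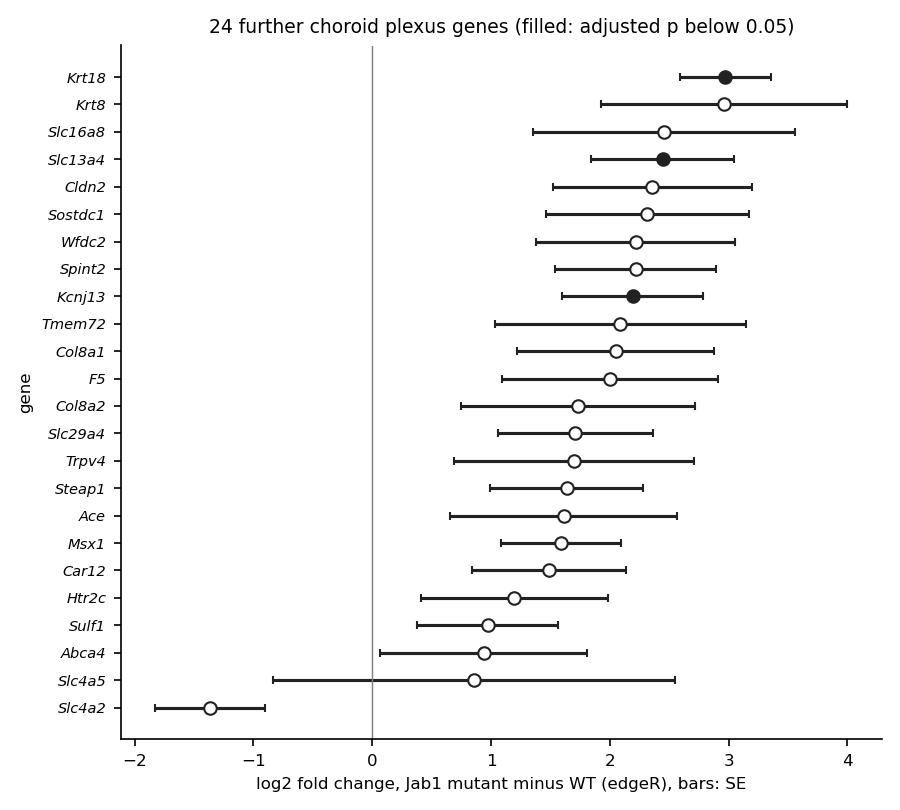
Log2 fold change of the 24 further choroid plexus genes tested, Jab1 mutants minus WT, fitted by edgeR on 8 samples, with bars of 1 SE and filled points at an adjusted p below 0.05. Krt18, Slc13a4 and Kcnj13 are filled, and Slc4a2 is the only gene below 0.

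In double mutants against WT, 0 of the 24 passed in edgeR, beside 0.175% called higher and 0.0169% lower over all genes. Unadjusted p was below 0.05 for 11 (12.4% of all genes), and DESeq2 called 6, all higher (4.94% of all genes). Fitted values were above 0 for 23, with a median of 1.98. Kcnj13 had a fitted log2 fold change of 2.26 (SE 0.67, adjusted p = 0.204) and Krt18 of 3.09 (SE 0.60, adjusted p = 0.0844). Between double mutants and Jab1 mutants, 0 of the 24 passed in edgeR or DESeq2 (0% and 0.499% of all genes). Among them 1 (Slc4a2) had an unadjusted p below 0.05 (5% of all genes), and the median fitted value was 0.05.

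Markers of other cell types moved with the members, and their part in these results was not tested. Their lists were also chosen with earlier results of these data known. On the mean of log2(CPM + 1) per sample, the further choroid plexus list followed the 9 members with r of 0.97 on deviations from genotype means, and the oligodendrocyte list ran against them with r of −0.80. Over the same 12 samples, r was 0.64 for endothelial, 0.61 for meningeal fibroblast, 0.60 for ependymal, 0.57 for astrocyte, 0.55 for neuronal, 0.51 for microglial, 0.31 for mural and −0.11 for erythroid markers. WT replicate 5, lowest in most members, had the highest summed oligodendrocyte markers (40455 CPM), and Jab1 mutant replicate 3, highest there in Ttr, had the lowest (5752 CPM). Other samples did not keep this order. Double mutant replicate 3, the highest in Ttr, was at 15789 CPM, above double mutant replicate 5 (9547 CPM). Jab1 mutant replicate 1 was at 27582 CPM, above WT replicates 1, 3 and 6 (20795, 18675 and 18133 CPM).

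In Jab1 mutants against WT, microglial markers were called higher for 10 of 10 genes (summed 713 to 1516 CPM against 87.3 to 218 CPM in WT), endothelial for 5 of 8 (720 to 4783 CPM against 315 to 721 CPM), mural for 2 of 6 (236 to 718 CPM against 129 to 268 CPM) and ependymal for 1 of 8 (56.4 to 91.8 CPM against 27.6 to 60.7 CPM). Oligodendrocyte markers were called lower for 7 of 11. Over all genes, 5.19% were called higher and 2.46% lower. None of the 8 astrocyte, 8 neuronal, 7 meningeal fibroblast or 6 erythroid genes was called in edgeR. Of these, 3, 3, 3 and 4 had an unadjusted p below 0.05 (22.5% of all genes). DESeq2 called 1, 1, 2 and 0 of them (15.3% of all genes). In double mutants against WT, edgeR called 0 genes of these lists, beside 0.175% called higher and 0.0169% lower over all genes. Unadjusted p was below 0.05 for 10 microglial, 7 endothelial and 5 oligodendrocyte genes. The same held for 3 neuronal, 2 mural, 2 meningeal fibroblast, 1 ependymal and 1 astrocyte gene, beside 12.4% of all genes. DESeq2 called 6 microglial, 5 endothelial, 2 mural and 1 neuronal gene higher and 5 oligodendrocyte genes lower (4.94% of all genes). When double mutants were set against Jab1 mutants, edgeR and DESeq2 called 0 genes of these lists (0% and 0.499% of all genes). There, 2 erythroid genes had an unadjusted p below 0.05 (5% of all genes). Summed microglial markers reached 10134 CPM in double mutant replicate 3, the sample highest in Ttr. Summed ependymal markers, from the cells that line the ventricles beside the choroid plexus, stayed at or below 91.8 CPM in all 12 samples.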

How the data were processed

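RNA-Seq was measured in 12 samples of sorted CD45- O1+ cells, 4 per genotype, grouped by the genotype in the labels. According to the submitters' processing notes and methods, SMART-Seq v4 libraries were read as paired ends, reads were trimmed (Trimmomatic 0.32) and aligned to GRCm38 (STAR 2.5.3a), and featureCounts assigned them to GENCODE basic genes. The study also rechecked the purity of the sorted cells, CD45+ cells included, by cytometry, and those values are not used here. Its methods add that minor contamination with other cell types could not be fully excluded. Strand and multi-mapping settings are not given in the sources used here. The authors deposited raw counts by gene symbol, neither normalized nor filtered.

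From these counts, TMM-scaled CPM were computed over the 12 samples, and CPM per kb by the union of exons in GENCODE M21. The main test was the quasi-likelihood test of edgeR 4.0.16 (R 4.3.3), fitted to the 8 samples of a comparison. It covered 17716 genes that reached 1 CPM in 4 or more samples. P-values were adjusted by the Benjamini-Hochberg method (threshold 0.05) and measure the spread between pools of 2 brains. The alternatives were DESeq2 size factors in edgeR, DESeq2 1.42.0, no filter on low values, a filter at a mean of 10 CPM, a joint fit of the 12 samples, the replicate number as a block, and each sample left out. In the block fit, a sample whose number occurs in only 1 group does not inform the genotype difference. Jab1 mutants and WT share the numbers 1 and 3, double mutants and WT 1, 3 and 5, and the mutant genotypes 1, 2 and 3. The edgeR and DESeq2 steps were tested on simulated data.

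The members and gene lists were chosen with earlier results of these data known. The text names all 10 members, the 5 most abundant of the further choroid plexus genes and those called, the 10 genes most like the 9 members other than Enpp2, the 5 most like Enpp2, and Cops5 and Cdkn1a. Other genes of the further list (Tmem72, Car12, Slc4a5) were named after their values were seen. No pair of samples of 1 genotype agreed within sampling noise, and the reads carry no molecular identifiers. A gene of the oligodendrocyte list is not reported here and was left out of its values.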

Additional observations from a re-analysis of the deposited data

Results flagged for a closer look

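A sample was looked at again where it lay far from the other 3 of its genotype, by Dixon's ratio of its gap to the range of the group, computed on log2(CPM + 1). Over 30 groups (10 genes in 3 genotypes) this held for 3 values, and chance alone flags about 1 in 20 groups. Clic6 was at 9.98 CPM in double mutant replicate 1, the lowest of that genotype (ratio 0.845), and the next sample was at 51.8 CPM. Aqp1 was at 2.65 CPM in WT replicate 3 (ratio 0.833), where the next sample was at 0.379 CPM. Aqp1 was also at 3.28 CPM in Jab1 mutant replicate 1 (ratio 0.850), where the next sample was at 0.533 CPM. The causes were not tested.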

How the results depend on the processing

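Across 417 alternatives for single members, 356 kept direction and side of the threshold, 25 lost the call, 10 gained it and 26 changed sign. None of the sign changes was in a called value, and their causes were not tested. Between Jab1 mutants and WT, genes called went from 1354 (919 higher) to 2689 with DESeq2, 660 with the replicate block and 678 to 1863 with 1 sample left out. With no filter they went to 903, over 36070 genes tested. Counts and fitted values with the replicate block rest only on samples whose number occurs in both groups. Of the members, 4 were called, against 1 with no filter, 2 with all 12 samples in one fit, 6 with DESeq2 or with a mean of at least 10 CPM and 1 to 5 with 1 sample left out. Of the further choroid plexus genes, 3 were called, against 11 with DESeq2, 1 with no filter, 5 with a mean of at least 10 CPM, 1 with all 12 samples in one fit and 1 to 4 with 1 sample left out.

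In double mutants against WT, genes called went from 34 to 862 with DESeq2, 21 with no filter, 140 with a mean of at least 10 CPM, 164 with all 12 samples in one fit, 1 with the replicate block and 1 to 274 with 1 sample left out (274 without double mutant replicate 1, at most 8 without any other). Members called went from 0 to 3 with DESeq2, and further choroid plexus genes from 0 to 6 with DESeq2, 1 with a mean of at least 10 CPM, 1 with all 12 samples in one fit and 0 to 2 with 1 sample left out. Between double mutants and Jab1 mutants, genes called went from 0 to 87 with DESeq2, 5 with a mean of at least 10 CPM and 0 to 2 with 1 sample left out, and members called stayed at 0 in each.

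Enpp2 had a fitted log2 fold change of −0.012 with DESeq2 size factors or DESeq2 and −0.12 with no filter (Jab1 mutants against WT), 0.54 with the replicate block and a range of −0.23 to 0.19 with 1 sample left out. Aqp1 ranged from −0.80 (without Jab1 mutant replicate 1) to 2.43. Against WT, double mutants had −0.033 for Enpp2 with the replicate block and −0.21 to 0.35 with 1 sample left out. Between double mutants and Jab1 mutants, Folr1 was at 0.16 with the replicate block, and with 1 sample left out Ttr ranged from −0.86 to 0.057, Enpp2 from −0.18 to 0.39, Folr1 from −0.78 to 0.53, Kl from −1.12 to 0.027, Otx2 from −0.58 to 0.26 and Prlr from −0.50 to 0.42.

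Same-numbered samples did not deviate together (r of −0.19 to 0.08), so the numbers were not taken as pairs. With the replicate block, only replicates 1 and 3 of Jab1 mutants and WT inform the genotype difference. In that fit Folr1 was called (adjusted p = 0.0401), Prlr (adjusted p = 0.0698) and Kcne2 (adjusted p = 0.228) were not, and 3 members were called in all. It differs from the main fit in the samples that count as well as in the block.

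Members other than Aqp1 had at least 120 counts in every sample, whereas Aqp1 had as few as 12. Without molecular identifiers, read counts do not give the number of molecules sampled. Whether depth or input limits these results was not tested. Each genotype had 4 samples.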
